A study of Homo sapiens with 9 samples.

Results

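The cornified envelope is the protein shell that keratinocytes build under their membrane in the last stage of epidermal differentiation. The genes described here are 47 genes of that structure and of its assembly, taken as a list of symbols and looked up in every library. They comprise precursor proteins, small proline-rich (SPRR) and late cornified envelope (LCE) proteins, S100-fused proteins, transglutaminases, plakins and scaffolds, deiminases, proteases, cystatins, secreted suprabasal proteins and S100 proteins. Of the 47 genes, 40 were listed with a value in at least 1 of the 9 libraries, out of 16199 genes listed in all. The other 7, SPRR2B, SPRR2G, LCE1A, LCE1B, LCE1C, LCE3D and LCE3E, were not listed in any library.

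The cells were HaCaT, an immortalized human keratinocyte line, carried as wild type and placed in serum-free medium after confluence in every group. One group of 3 libraries came from untreated cells, 1 group of 3 from cells given epidermal growth factor (EGF, 10 nM) for 24 h, and 1 group of 3 from cells given bleogen pB1 (1 µM) for 24 h. EGF is a natural ligand of the EGF receptor (EGFR), and bleogen pB1 is a cactus-derived peptide that acts as an EGFR agonist. The doses of EGF and bleogen pB1 differed, so that the comparison between them is one of these doses and not of equal amounts. As a single immortalized line, HaCaT is a limited model of the layered epidermis, and no source used here says that the replicates were separate cultures. The p-values therefore measure the spread between these libraries, which may be technical.

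In the epidermis, basal keratinocytes divide on the basement membrane and their daughters move outwards while they differentiate. Periplakin and envoplakin first form a scaffold under the membrane, involucrin is laid on it, and loricrin, SPRR and LCE proteins are then added and cross-linked by transglutaminases. Many of these genes lie side by side on chromosome 1 in the epidermal differentiation complex. EGFR signalling is known to keep keratinocytes proliferating and to hold back parts of this programme.

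The libraries held 20288417 to 21320994 expected counts, so that 3 counts corresponded to 0.141 to 0.148 CPM, the count of a gene relative to the depth of its own library. Keratinocyte markers were abundant in every library, and the 6 of them summed to between 10540 and 12450 CPM. Markers of other cell types were near 0, and these low sums moved with treatment. The 6 fibroblast markers summed to 7.62 to 9.31 CPM in untreated, 1.25 to 2.00 CPM in EGF and 6.08 to 9.17 CPM in bleogen pB1 libraries, with COL1A2 at 0 to 3 counts and PDGFRB at 0 to 2 counts. The 3 endothelial markers summed to 3.44 to 4.78, 0.289 to 0.504 and 1.11 to 1.91 CPM in the same order. The 4 melanocyte markers summed to 1.35 to 1.58, 0.750 to 1.30 and 0.928 to 1.53 CPM, with TYR not listed in any library. MLANA, too low to test, did not fall with EGF. It had 2, 2 and 5 counts in untreated, 5, 2 and 7 in EGF and 5, 4 and 6 in bleogen pB1 libraries. DCT had 1 count, in EGF replicate 1. Of these lists, the 3 fibroblast and the 2 endothelial markers with enough counts to test were all called lower with EGF, as was the 1 tested melanocyte marker, PMEL (log2 fold change −0.80, adjusted p = 0.040). Of all genes tested, 21.8% were called lower with EGF. DCN, CDH5 and VWF had enough counts to test only through the groups in which they were high. With EGF, DCN had 0 to 1 counts per library, CDH5 0 to 5 and VWF 4 to 8. That they were called lower is therefore partly set by the filter on low counts. The endothelial marker CDH5 was also called lower with bleogen pB1 (−2.34, adjusted p = 0.0077). The part of these low signals in the results below was not tested.

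Differences between groups were tested on 12394 genes, and a gene was called changed at an adjusted p of at most 0.05 with a log2 fold change of at least 0.5 in size. Of the 47 genes, 20 passed the filter on low counts and 20 were listed with too few counts, of which none exceeded 22 counts in any library. Some of the 20 passed only through the groups in which they were high. CNFN, CASP14 and PADI3 had 2 to 7 counts in each EGF library.

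The proximal promoters of 4 genes with large called changes are shown first, since both genes that rose and genes that fell with EGF are among them. Each stretch runs 5′ to 3′ on the strand of the gene from 250 bases before to 50 bases after the start in RefSeq (GRCh38.p14). Capitals mark the letters of 3 motifs searched on both strands, the AP-1 motif TGANTCA, which reads the same on either strand, the TATA box TATAAA and the GC box GGGCGG, which appears as CCGCCC where it lies on the other strand. SPRR1B, with the greatest rise with EGF of the 20 tested genes, lies on the plus strand at chr1:153030953-153031252, IVL on the plus strand at chr1:152908296-152908595, SCEL on the plus strand at chr13:77535456-77535755 and CNFN on the minus strand at chr19:42390248-42390547.
SPRR1B: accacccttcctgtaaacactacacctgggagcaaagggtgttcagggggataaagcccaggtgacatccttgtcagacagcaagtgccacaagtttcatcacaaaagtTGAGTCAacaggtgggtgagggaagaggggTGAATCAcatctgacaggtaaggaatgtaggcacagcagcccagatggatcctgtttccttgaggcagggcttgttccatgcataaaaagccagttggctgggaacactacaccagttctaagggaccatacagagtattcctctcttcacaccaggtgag
IVL: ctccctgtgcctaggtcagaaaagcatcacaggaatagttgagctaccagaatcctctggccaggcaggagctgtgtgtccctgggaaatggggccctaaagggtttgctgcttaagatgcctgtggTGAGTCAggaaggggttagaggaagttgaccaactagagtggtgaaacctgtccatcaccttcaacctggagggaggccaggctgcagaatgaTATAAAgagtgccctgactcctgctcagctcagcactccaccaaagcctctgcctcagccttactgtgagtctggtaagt
SCEL: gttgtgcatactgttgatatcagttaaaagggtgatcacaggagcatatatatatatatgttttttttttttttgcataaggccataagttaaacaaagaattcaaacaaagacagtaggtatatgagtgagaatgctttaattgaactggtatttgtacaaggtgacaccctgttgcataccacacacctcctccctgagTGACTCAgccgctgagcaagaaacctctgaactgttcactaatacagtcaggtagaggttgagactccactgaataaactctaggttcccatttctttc
CNFN: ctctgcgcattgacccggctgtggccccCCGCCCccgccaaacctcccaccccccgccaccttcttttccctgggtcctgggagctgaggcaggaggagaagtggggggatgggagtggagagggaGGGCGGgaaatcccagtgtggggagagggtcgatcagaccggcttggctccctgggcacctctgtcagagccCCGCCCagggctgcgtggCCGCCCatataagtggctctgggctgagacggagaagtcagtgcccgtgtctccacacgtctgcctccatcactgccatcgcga

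The AP-1 letters occurred at 2 places in the SPRR1B window, at 1 place in the IVL window, 123 bases before the start, and at 1 place in the SCEL window, 49 bases before the start. They were not found in the CNFN window, which held 4 GC boxes. The IVL window also held TATAAA 30 bases before the start. AP-1 letters were thus in the windows of a gene that rose and of genes that fell. Of 14 tested genes with a promoter entry, 8 held the AP-1 letters in at least 1 window (CASP14, DMKN, FLG, IVL, S100A2, SCEL, SPRR1B and TCHH), 4 held TATAAA and 4 held the GC box. Over all 35116 promoter windows of the same length, 7.71% held the AP-1 letters, 11.5% held TATAAA and 45.0% held the GC box. A match is a run of letters and not a measured binding site, and genes with several annotated starts had more windows in which a match could occur.

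With EGF, expression of the cornified envelope genes moved in both directions. Of the 20 tested genes, 4 rose (SPRR1B, TGM2, S100A2 and DMKN), 7 fell (SCEL, IVL, CNFN, TGM1, CASP14, TCHH and PADI3) and 9 were not called. Of the 7 that fell, CNFN, CASP14 and PADI3 passed the count filter only through the groups in which they were high. With at least 10 counts required in every library, 16 genes were tested, of which 4 rose and 4 fell. With DESeq2 or without the count filter, which admit the low SPRR genes, 40 genes were tested, of which 9 rose and 6 fell. With 1 library left out, the number of genes tested changed as well. The split then ranged from 4 higher and 6 lower of 21 (without EGF replicate 2 or 3) to 7 higher and 5 lower. The latter was of 23 genes without untreated replicate 1 and of 24 without untreated replicate 2. SPRR1A, SPRR2A and SPRR2D were among those 7. Among all 12394 genes tested with every library and the count filter, 15.1% were called higher and 21.8% were called lower with EGF. These shares are not given here for the other settings. The median log2 fold change of the 20 genes was −0.16, beside −0.013 for all genes tested. With bleogen pB1, 1 of the 20 rose (SPRR1B), 1 fell (SCEL) and 18 were not called, where 0.218% of all genes were called higher and 1.26% lower. When 1 library was left out, 23 or 24 genes were tested. The count of 2 called genes then ranged from 0 (without untreated replicate 3) to 4 (without bleogen pB1 replicate 1). It was 1 without untreated replicate 1 or bleogen pB1 replicate 3 (SPRR1B) or without untreated replicate 2 (FLG, lower). The median log2 fold change with bleogen pB1 was also −0.16, beside −0.001 for all genes. Both comparisons use the same untreated libraries. Between EGF and bleogen pB1, 4 of the 20 were higher with EGF (SPRR1B, TGM2, S100A2 and PADI1), 5 were lower (SCEL, IVL, CNFN, TGM1 and CASP14) and 11 were not called, where 10.8% of all genes were higher and 18% lower, and the medians were 0.085 for the 20 genes and −0.012 for all. In these bulk libraries, fewer cells of a type and less RNA per cell cannot be told apart.

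**Figure D1:**
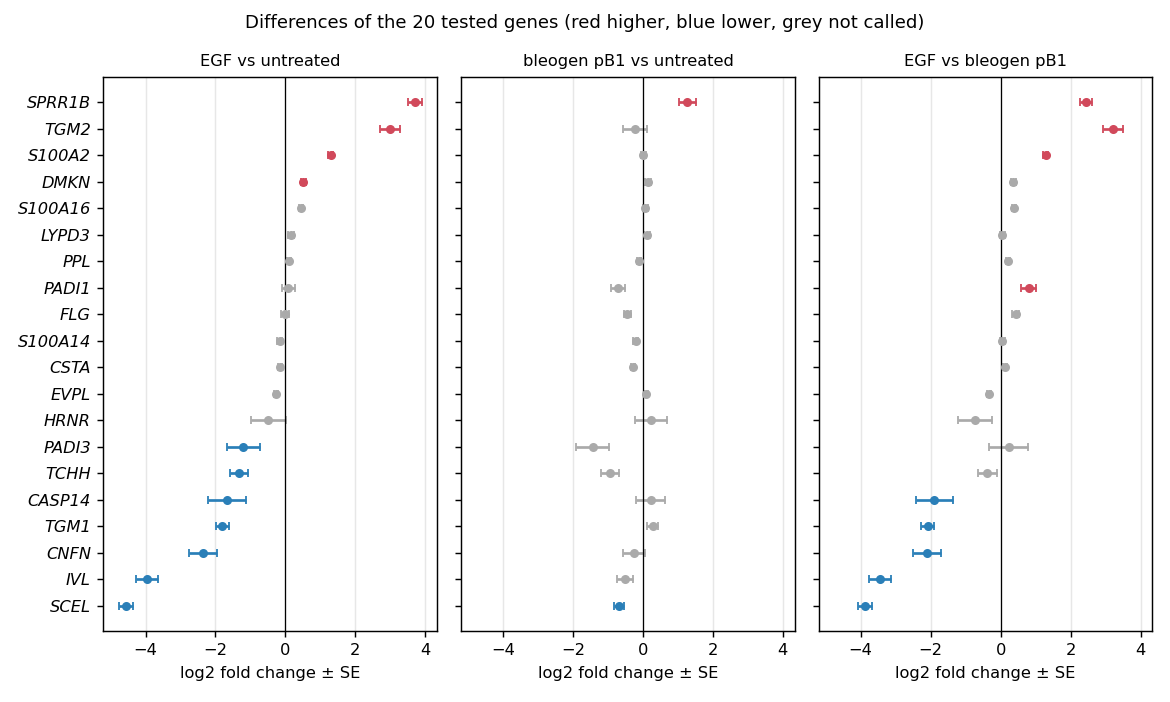
Log2 fold change with its standard error of the 20 tested genes in 3 comparisons (columns), each fitted on all 9 libraries. Red points were called higher, blue points lower and grey points not called. SPRR1B and TGM2 lie farthest to the right and SCEL and IVL farthest to the left with EGF, whereas SPRR1B and SCEL are the 2 coloured points with bleogen pB1.

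Per unit of transcript length (FPKM), the 20 tested genes ranged in untreated cells from 0.070 FPKM for HRNR to 581.8 FPKM for S100A14. The S100 genes were at the top, with S100A14 at 581.8 ± 24.0 FPKM (SD, n = 3), S100A2 at 302.5 ± 26.3 FPKM and S100A16 at 277.7 ± 15.1 FPKM. The ranges of S100A2 and S100A16 overlapped across the untreated libraries. Within each of these libraries S100A2 was the higher, at 306.16, 326.71 and 274.56 FPKM against 287.1, 285.65 and 260.21 FPKM for S100A16. Next came CSTA, a cysteine protease inhibitor of the envelope, at 89.7 ± 1.52 FPKM, the secreted protein DMKN at 56.3 ± 2.85 FPKM, LYPD3 at 48.8 ± 3.26 FPKM and the plakin PPL at 48.0 ± 2.46 FPKM. IVL stood at 6.81 ± 0.510 FPKM, TGM1 at 4.18 ± 0.358 FPKM and SPRR1B at 1.64 ± 0.480 FPKM. With EGF the order was changed, since S100A2 came first at 705.7 ± 24.4 FPKM, SPRR1B reached 20.3 ± 2.55 FPKM and rank 8, while SCEL stood at 0.457 FPKM and IVL at 0.413 FPKM, ranks 17 and 19 among all listed genes of the 47 against ranks 10 and 11 in untreated cells.

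The precursor IVL (involucrin), an early glutamine-rich substrate of transglutaminases, lies within the epidermal differentiation complex at chr1:152908546-152911886 (GRCh38). It had 14.5, 15.3 and 12.99 CPM in the untreated libraries, 1.15, 0.655 and 0.915 CPM with EGF, and 13.7, 5.75 and 10.4 CPM with bleogen pB1. All EGF libraries lay below all others, whereas bleogen pB1 replicate 1 lay among the untreated libraries and replicate 2 lay lowest of its group. Over all genes too, replicate 2 stood farther from the untreated libraries (SD of the log2 ratios 0.333 to 0.375) than replicate 1 (0.228 to 0.246) or replicate 3 (0.263 to 0.286), and nearer to the EGF libraries. The log2 fold change with EGF was −3.96 (SE 0.32, adjusted p = 3.7e-07), a 15.6-fold difference. With bleogen pB1 it was −0.52 (adjusted p = 0.20) and was not called. Without bleogen pB1 replicate 1, the value was −0.82 (adjusted p = 0.026) and passed the thresholds. IVL was 10.9-fold lower with EGF than with bleogen pB1 (log2 fold change −3.44, SE 0.32, adjusted p = 2.2e-06).

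CNFN (cornifelin), a small envelope component encoded at chr19:42387019-42390297, had 28, 25 and 17 counts in the untreated libraries, 5, 4 and 4 with EGF, and 26, 20 and 14 with bleogen pB1. The EGF libraries were again below all others, and the untreated and bleogen pB1 libraries overlapped. The mean fell from 1.13 ± 0.282 to 0.215 ± 0.0309 CPM with EGF (SD, n = 3; log2 fold change −2.36, SE 0.40, adjusted p = 0.00019). With bleogen pB1 the mean was 0.942 ± 0.294 CPM (log2 fold change −0.26, adjusted p = 0.65). LOR (loricrin), the main precursor of the mature envelope, had 1 count in 1 EGF library and was not listed in the other 8.

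The scaffold genes did not move together. SCEL (sciellin), a protein cross-linked into the envelope, lies outside the complex at chr13:77535674-77645263 and showed the greatest fall of the 20 genes with EGF. Its values were 35.9, 36.9 and 33.1 CPM in untreated libraries, 1.30, 1.61 and 1.54 CPM with EGF, and 28.0, 16.6 and 21.3 CPM with bleogen pB1. The 3 groups did not overlap, with bleogen pB1 between untreated and EGF. The fall with EGF was 23.7-fold (log2 fold change −4.57, SE 0.20, adjusted p = 2.2e-09), and that with bleogen pB1 was 1.61-fold (log2 fold change −0.69, SE 0.14, adjusted p = 0.021). SCEL was 14.7-fold lower with EGF than with bleogen pB1 (adjusted p = 1.5e-08). The fall with bleogen pB1 lost its call without untreated replicate 1 (adjusted p = 0.11), replicate 2 (0.094) or replicate 3 (0.054) or without bleogen pB1 replicate 3 (0.11), with log2 fold changes of −0.65 to −0.73. Without bleogen pB1 replicate 1 it was −0.90 (adjusted p = 0.00092), and without replicate 2, the lowest of its group, it was −0.52 (adjusted p = 0.048). PPL (periplakin) and EVPL (envoplakin), the plakins on which the envelope is first laid, were not called in any comparison. PPL had means of 294.1 ± 13.2, 316.0 ± 6.42 and 272.6 ± 18.2 CPM, and EVPL of 107.1 ± 4.33, 89.8 ± 1.26 and 113.4 ± 4.82 CPM, in untreated, EGF and bleogen pB1 libraries. For EVPL with EGF the adjusted p was 0.0015, but the log2 fold change of −0.26 was under the limit in size.

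**Figure D2:**
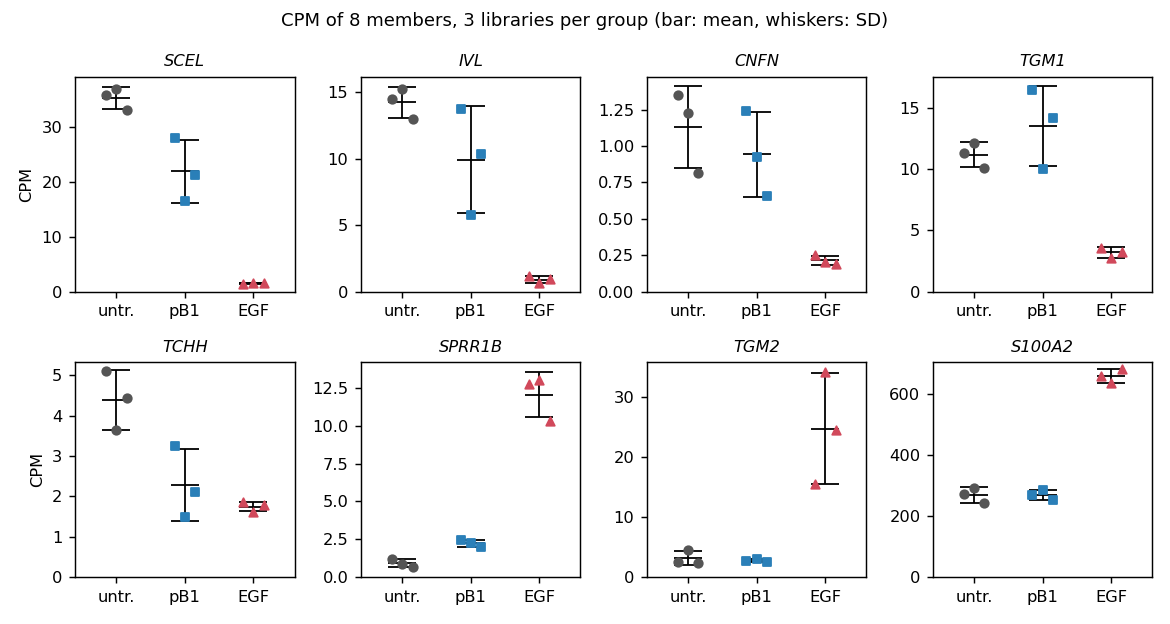
CPM of 8 genes in the 9 libraries (points), with the mean and SD of each group of 3 (bars and whiskers) and a separate linear axis from 0 for each gene. SCEL, IVL, CNFN and TGM1 are lowest and SPRR1B, TGM2 and S100A2 highest in the EGF libraries. The bleogen pB1 libraries of SCEL, IVL, TGM1, TCHH and, by little, CNFN are spread over a wider range than the untreated ones.

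The transglutaminases, which cross-link envelope proteins, divided by gene. TGM1, the membrane-bound enzyme of the epidermis (chr14:24249114-24264432), had 11.3, 12.2 and 10.1 CPM in untreated libraries, 3.60, 2.72 and 3.27 CPM with EGF, and 16.5, 10.0 and 14.2 CPM with bleogen pB1. TGM1 was lower in every EGF library than in the other 6. It fell 3.50-fold with EGF (log2 fold change −1.81, SE 0.19, adjusted p = 3.8e-06). With bleogen pB1 its log2 fold change was 0.27 (adjusted p = 0.35, 95% interval −0.13 to 0.68).

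TGM2, the widely expressed tissue transglutaminase (chr20:38127385-38166578), had 2.56, 4.52 and 2.29 CPM in untreated libraries, 15.6, 34.1 and 24.5 CPM with EGF, and 2.58, 2.97 and 2.48 CPM with bleogen pB1. In CPM the EGF libraries differed among themselves by more than the others did, yet each was above all untreated and bleogen pB1 libraries. TGM2 rose 7.92-fold with EGF (log2 fold change 2.99, SE 0.29, adjusted p = 1.7e-06). With bleogen pB1 the log2 fold change was −0.22 (adjusted p = 0.75, 95% interval −1.06 to 0.62). The ratio of TGM1 to TGM2 in FPKM was 4.96 to 8.26 in untreated libraries, 0.148 to 0.399 with EGF and 6.03 to 11.9 with bleogen pB1, so that TGM2 exceeded TGM1 per length in the EGF libraries alone. TGM3 had 0 to 2 counts and TGM5 0 to 6 counts per library, which was too few to test.

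Of the SPRR genes, whose products act as cross-bridges between other envelope proteins, SPRR1B alone passed the count filter, and it rose with both treatments. SPRR1B (chr1:153031203-153032900) had 1.21, 0.884 and 0.669 CPM in untreated libraries, 12.8, 13.04 and 10.4 CPM with EGF, and 2.44, 2.27 and 1.97 CPM with bleogen pB1. The 3 groups did not overlap. SPRR1B rose 13-fold with EGF (log2 fold change 3.71, SE 0.20, adjusted p = 1.3e-08) and 2.41-fold with bleogen pB1 (log2 fold change 1.27, SE 0.24, adjusted p = 0.010). It was 5.41-fold higher with EGF than with bleogen pB1 (adjusted p = 2.3e-07). The rise with bleogen pB1 was not called without untreated replicate 2 (log2 fold change 1.24, adjusted p = 0.051) or without untreated replicate 3 (1.09, adjusted p = 0.053). The untreated libraries held 25, 18 and 14 counts of it, against 51, 49 and 42 with bleogen pB1. IVL and SPRR1B, both encoded in the complex and both substrates of transglutaminases, went opposite ways with EGF. IVL exceeded SPRR1B in FPKM by 3.22 to 5.21 times in untreated libraries, and the ratio was 0.0138 to 0.0243 with EGF and 0.670 to 1.49 with bleogen pB1.

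The other 6 listed SPRR genes were too low for the filter. SPRR1A had 2, 5 and 4 counts in untreated libraries, 9, 14 and 11 with EGF, and 4, 4 and 5 with bleogen pB1. SPRR2A had 4, 1 and 3 counts untreated, 7, 22 and 16 with EGF, and 2, 0 and 3 with bleogen pB1. SPRR2D had 0 counts in all untreated libraries, 3, 13 and 12 with EGF, and 0, 5 and 0 with bleogen pB1. For SPRR1A and SPRR2A all EGF libraries were above all others, and for SPRR2D the lowest EGF library lay below bleogen pB1 replicate 2. The 6 genes summed to 8, 6 and 7 counts in untreated, 26, 62 and 52 in EGF and 8, 12 and 15 in bleogen pB1 libraries. Without the filter, edgeR called 5 of them higher with EGF, namely SPRR1A (adjusted p = 0.014), SPRR2A (0.0033), SPRR2D (0.0019), SPRR2E (0.026) and SPRR3 (0.014), but not SPRR2F (0.075). With DESeq2 the same 5 were called, with adjusted p from 0.0015 to 0.049. The share of all genes called higher under these 2 settings is not given here. SPRR2E had 0 counts in all untreated libraries, 0, 5 and 6 with EGF, and 1, 1 and 6 with bleogen pB1. SPRR3 had 1, 0 and 0 counts untreated, 4, 4 and 5 with EGF, and 0, 1 and 1 with bleogen pB1. The calls of these 2 genes thus rest on few counts. The SPRR2 genes are near-identical copies and some of their counts were fractional, so that reads could have been split between them and the single-gene values are uncertain. The 4 listed SPRR2 genes together had 5, 1 and 3 counts untreated, 13, 44 and 36 with EGF, and 4, 7 and 9 with bleogen pB1.

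**Figure D3:**
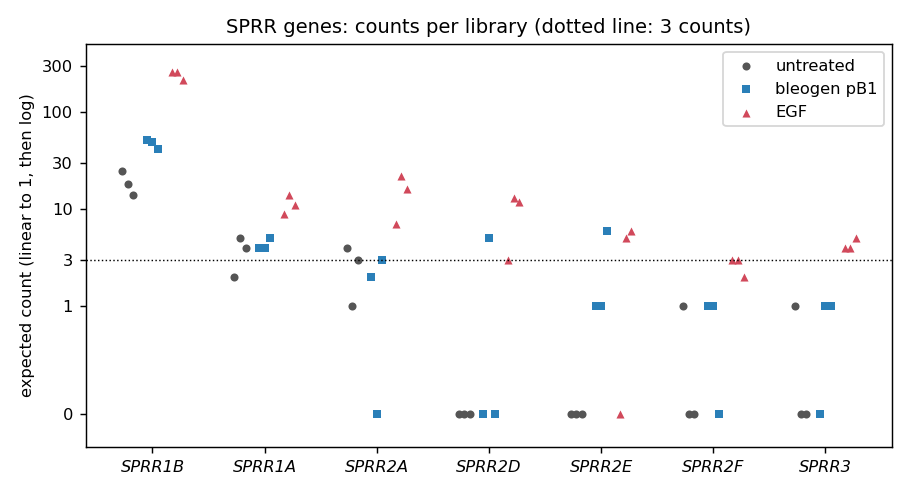
Expected counts of the 7 listed SPRR genes in each library (linear to 1, then log), with a dotted line at 3 counts. SPRR1B stands at 14 to 25 counts in untreated, 42 to 51 in bleogen pB1 and 215 to 259 in EGF libraries, and the other 6 genes reach at most 22 counts, in an EGF library.

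Of the S100-fused proteins, which bind keratin filaments in granular cells and the hair follicle, TCHH and FLG were well measured. TCHH (trichohyalin, chr1:152106317-152115444) had 106, 74 and 93 counts in untreated libraries, 37, 32 and 37 with EGF, and 68, 32 and 45 with bleogen pB1. All treated libraries were below all untreated ones. TCHH fell 2.51-fold with EGF (log2 fold change −1.33, SE 0.26, adjusted p = 0.00055). With bleogen pB1 the log2 fold change was −0.95 (adjusted p = 0.051), just outside the threshold, and it was −1.29 (adjusted p = 0.0061) without bleogen pB1 replicate 1. DESeq2 called it (adjusted p = 0.020). EGF and bleogen pB1 were not separated (log2 fold change −0.38, adjusted p = 0.25).

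FLG (filaggrin, chr1:152302165-152325239), whose product bundles keratin and is broken down to natural moisturizing factor, was not called with all libraries. Its untreated libraries had 191.6, 168.2 and 219.8 CPM, its EGF libraries 159.9, 221.2 and 191.3 CPM, and its bleogen pB1 libraries 134.4, 146.0 and 145.5 CPM. The EGF libraries lay over the same range as the untreated ones, and the bleogen pB1 libraries lay below both. The log2 fold change was −0.02 with EGF (adjusted p = 0.89, 95% interval −0.29 to 0.25). With bleogen pB1 it was −0.45, with an adjusted p of 0.045 and a size under the fold limit, and it passed that limit without untreated replicate 2 (−0.54, adjusted p = 0.043). HRNR (hornerin) had 4 to 23 counts per library and was not called, FLG2 had 3 to 7 counts, and CRNN and RPTN had at most 2.

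Deiminases convert arginine to citrulline in filaggrin, trichohyalin and keratins, and CASP14 and ASPRV1 are proteases of filaggrin processing. PADI3 had 12, 13 and 18 counts in untreated libraries, 6 in each EGF library, and 8, 1 and 7 with bleogen pB1. PADI3 was lower in all treated than in all untreated libraries, at the edge of detection. It fell with EGF by 1.21 on the log2 scale (SE 0.47, adjusted p = 0.036), but lost the call when any 1 of the 6 libraries was left out, with adjusted p from 0.050 to 0.12. With bleogen pB1 its log2 fold change was −1.44 (adjusted p = 0.10). PADI1 had 2.51, 2.55 and 2.34 CPM in untreated libraries, 2.20, 2.72 and 2.94 CPM with EGF, and 1.62, 1.30 and 1.59 CPM with bleogen pB1. The bleogen pB1 libraries were the lowest, and PADI1 was 1.74-fold higher with EGF than with bleogen pB1 (log2 fold change 0.80, SE 0.21, adjusted p = 0.0050). Against untreated cells, bleogen pB1 gave −0.71 (adjusted p = 0.071) and EGF 0.09 (adjusted p = 0.71). CASP14 had 17, 17 and 6 counts in untreated libraries, 2, 3 and 7 with EGF, and 17, 19 and 12 with bleogen pB1. The untreated and EGF libraries overlapped. CASP14 fell with EGF by 1.68 on the log2 scale (SE 0.54, adjusted p = 0.015), and the call was lost without untreated replicate 1 (−1.47, adjusted p = 0.060), untreated replicate 2 (−1.46, 0.061) or EGF replicate 1 (−1.37, 0.054). Without EGF replicate 3 it was −2.31 (adjusted p = 0.010). It was lower with EGF than with bleogen pB1 (log2 fold change −1.90, SE 0.52, adjusted p = 0.0075), and the value was −2.52 without EGF replicate 3. ASPRV1 had 2 to 7 counts and PADI2 0 to 3 counts per library.

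The S100 genes of the list, which encode small calcium-binding proteins, were the most abundant members, and S100A2 alone of the 3 was called. S100A2 (chr1:153561108-153567890) had 271.2, 292.6 and 242.0 CPM in untreated libraries, 659.4, 638.2 and 682.8 CPM with EGF, and 269.2, 284.4 and 254.2 CPM with bleogen pB1. The EGF libraries stood far above the rest, and bleogen pB1 lay within the untreated range. S100A2 rose 2.46-fold with EGF (log2 fold change 1.30, SE 0.07, adjusted p = 1.6e-08). With bleogen pB1 the log2 fold change was 0.00 (adjusted p = 0.98, 95% interval −0.17 to 0.18). S100A16 had 325.1, 326.8 and 293.5 CPM untreated, 443.4, 430.6 and 411.4 CPM with EGF, and 343.8, 319.6 and 329.0 CPM with bleogen pB1. Its EGF libraries were above all others, but its log2 fold change of 0.44 was under the fold limit (adjusted p = 3.3e-05). S100A14 had 603.4, 568.3 and 559.2 CPM untreated, 480.9, 574.0 and 494.1 CPM with EGF, and 537.0, 478.7 and 482.3 CPM with bleogen pB1. It was not called with EGF (log2 fold change −0.16, adjusted p = 0.075) or with bleogen pB1 (−0.21, adjusted p = 0.12).

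Among the remaining genes, DMKN (dermokine), a secreted suprabasal protein, had means of 44.5 ± 2.90 CPM in untreated, 63.6 ± 5.83 CPM in EGF and 49.4 ± 2.63 CPM in bleogen pB1 libraries. It rose 1.43-fold with EGF (log2 fold change 0.52, SE 0.08, adjusted p = 9.5e-05), close to the fold limit. It came under that limit without untreated replicate 3 (0.47) or EGF replicate 1 (0.44) and with upper-quartile scaling (0.41). Of its partners on the same part of chromosome 19, SBSN (suprabasin) had 3, 1 and 0 counts in untreated libraries and 0 in every treated one, and KRTDAP had 0 to 4. CSTA (cystatin A) had 67.9 ± 1.58, 60.6 ± 2.73 and 55.6 ± 2.36 CPM in the same order and was under the fold limit with EGF (log2 fold change −0.16, adjusted p = 0.031) and with bleogen pB1 (−0.29, adjusted p = 0.024). LYPD3, a surface protein of the urokinase receptor family, had 80.8 ± 5.94, 90.5 ± 7.28 and 87.7 ± 4.85 CPM and was not called. CDSN (corneodesmosin), which holds corneocytes together, had 2 to 18 counts. CST6 had 0 to 4 counts, CALML5 0 to 2 and CALML3 0 to 1.

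The genes were then set beside their neighbours on chromosome 1. Of the genes looked up, 60 were placed in the stretch of the epidermal differentiation complex considered here (chr1:151982915-153632039, 1.65 Mb). Of these 60, 25 belong to the 47, and 22 of the 47 lie elsewhere. Genes of the stretch that were not looked up are not counted. Of a separate list of 36 other genes of the complex, 18 were listed and 8 tested. With EGF, 3 of the 8 rose, none fell and 5 were not called, where 15.1% of all genes were called higher and 21.8% lower. The median log2 fold change of the 8 was 0.10, beside −0.013 for all genes tested. PRR9 and S100A5 passed the count filter through the EGF libraries in which they are high. Among neighbours under the filter, TCHHL1 had 8, 8 and 9 counts in untreated libraries, 0 in every EGF library, and 3, 3 and 7 with bleogen pB1. LCE5A had 11, 4 and 6 counts untreated, 1, 1 and 2 with EGF, and 13, 8 and 7 with bleogen pB1. For both, all EGF libraries were below all others. Without the filter, edgeR called TCHHL1 (adjusted p = 0.00030) and LCE5A (0.015) lower and SPRR4 (0.0058) higher with EGF, and DESeq2 called the same 3, which makes 4 higher and 2 lower. The shares of all genes called under these 2 settings are not given here. With bleogen pB1, 0 of the 8 were called by edgeR or by DESeq2. S100A6 was the 1 gene of the 8 with an unadjusted p under 0.05, and it passed the adjusted threshold (adjusted p = 0.044) with a log2 fold change of −0.38, under the fold limit.

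PRR9, a proline-rich gene of the complex at chr1:153217584-153219310, had 0 counts in all untreated and all bleogen pB1 libraries and 49, 119 and 81 counts with EGF. Its mean of 4.11 CPM with EGF was at least 27.8-fold higher than in untreated libraries, taking 3 counts per library as the floor (edgeR adjusted p = 1.5e-05). S100A5 rose with EGF by a log2 fold change of 1.76 (SE 0.47, adjusted p = 0.0048), from 0.275 ± 0.105 to 0.940 ± 0.280 CPM. PRR9 and S100A5 were tested only because their EGF libraries were high, so their adjusted p adds no separate support for a rise. S100A3 rose by 1.22 (SE 0.19, adjusted p = 8.2e-05), from 2.98 ± 0.518 to 6.96 ± 1.39 CPM, and since it lies within the bounds of S100A4 on the same strand, its counts are uncertain. Within the 1.65 Mb, the tested genes that were called went both ways, with TCHH and IVL lower and SPRR1B, PRR9, S100A5, S100A3 and S100A2 higher with EGF. The LCE genes were nearly silent, since of 18 LCE genes in both lists only LCE5A was listed.

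Keratins and basal markers were examined beside these genes. Of 4 tested suprabasal keratins, KRT1 (log2 fold change −4.08), KRT4 (−3.56) and KRT13 (−1.90) fell and KRT10 (0.67) rose with EGF, and with bleogen pB1 KRT1 rose (0.83, adjusted p = 0.048) and the other 3 were not called. Of 7 basal markers, KRT14 (0.88), TP63 (0.50), ITGA6 (1.30) and COL17A1 (0.66) rose and KRT5 (−1.12) and KRT15 (−1.85) fell with EGF. The rise of TP63 was close to the fold limit. With bleogen pB1, 0 of the 7 were called by edgeR. KRT14 (0.48, adjusted p = 0.0017) and ITGA6 (0.47, adjusted p = 0.0028) passed the adjusted threshold there but were under the fold limit. Of all genes tested, 15.1% were called higher and 21.8% lower with EGF, and 0.218% and 1.26% with bleogen pB1.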

How the data were processed

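HaCaT RNA was sequenced in 9 poly(A) libraries, 3 per group, and samples were grouped from their deposited titles and descriptions. The deposited files give, for each gene, the authors' expected counts, which are estimates left unscaled for depth. Beside them the authors deposited FPKM values, in which those estimates are scaled for gene length and library size. Reads were mapped to GRCh38 (patch p12). The counting program, and whether it used strand, are not given in the sources used here. A gene with no entry in a library was taken as 0. The 95% intervals were built from the SE and so cover the spread between these libraries, whereas the floors cover counting error only.

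The rounded counts went into the quasi-likelihood test of edgeR 4.0.16 (R 4.3.3) after filterByExpr and TMM scaling (all 9 libraries in 1 model, Benjamini-Hochberg adjustment over 12394 genes), with the fold and adjusted p limits of the study, which used DESeq2. The SE was derived from the log2 fold change and the root of its F statistic. CPM uses TMM-scaled library sizes. Scripts were tested on simulated data. Alternatives used DESeq2 1.42.0, limma 3.58.1, other scalings and filters, a replicate block and each library left out. The genes and lists were chosen with earlier results of these data known. Values in every library are given for genes called with bleogen pB1, genes called with EGF at a log2 fold change of at least 1 in size, and the 3 genes of highest untreated FPKM. The values of PADI1, FLG, SPRR1A, SPRR2A, SPRR2D, SPRR2E and SPRR3 are outside that rule. Of the neighbours, the 3 greatest called rises with EGF are named. S100A6, S100A4, LCE5A, TCHHL1 and SPRR4 were named after their values were seen. So were the markers PMEL, MLANA, DCT, DCN, VWF and CDH5. Gene positions come from GENCODE release 44, promoters from RefSeq on GRCh38.p14. TGM1 and TGM2 have no promoter entry. A leukocyte marker list is not reported here.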

Additional observations from a re-analysis of the deposited data

How the results depend on the processing

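The count of 11 genes called with EGF against untreated and of 9 called with EGF against bleogen pB1 stayed within 1.5 times under every alternative, and no called fold change turned its direction. The split of the 11, 4 higher and 7 lower, became 9 and 6 with DESeq2 or without a count filter, 7 and 4 with limma on log2(FPKM + 1) without a filter, and 4 and 4 with at least 10 counts in every library. PADI1, not called with EGF, went from 0.09 to −0.02 with upper-quartile scaling. The 2 genes called with bleogen pB1 became 4 with at least 10 counts in every library (PADI1 and TCHH added), 1 with limma on log2(FPKM + 1) without a filter, and 0 to 4 with 1 library left out. For the neighbours in the complex, the 3 called with EGF against untreated became 6 with DESeq2, 6 without a count filter (4 higher and 2 lower in both) and 1 with at least 10 counts in every library. The 3 called with EGF against bleogen pB1 became 6, 7 and 1 under the same settings. More or fewer genes are tested under these filters by construction, and the number tested also changed when 1 library was left out. Upper-quartile scaling moved the median of all genes with EGF from −0.013 to −0.118. With limma on log2(FPKM + 1) without a filter, TCHH (−0.39), CASP14 (−0.18) and PADI3 (−0.17) came under the fold limit with EGF. PADI3 was not called by DESeq2 (adjusted p = 0.12) or without a count filter (0.058). Deviations from the group means had correlations across genes of −0.03 to 0.207 between same-numbered libraries and of −0.253 to 0.163 between differently numbered ones. With 3 libraries per group, these values cannot decide whether the replicate numbers pair the libraries. With the replicate number as a block, 11, 3 and 9 genes were called in the 3 comparisons, TCHH being added for bleogen pB1. Genes near or below 3 counts in every library did not pass the count filter. Calls of such genes with DESeq2 or without the filter are uncertain at this depth.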
